A study of Homo sapiens with 15 samples.

Results

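The comparison described here set FOXA1 binding sites in 22Rv1 cells that expressed the C258A form of FOXA1, treated with the stereoprobe WX-02-23, against the same cells treated with DMSO. It used 2 of the 12 peak lists of the series, 1 library each. 22Rv1 is an established human prostate carcinoma line. The engineered cells stably expressed the Y36C form of PHF5A and carried a doxycycline-inducible C258A FOXA1. Both libraries of the comparison came from cells given doxycycline, with either DMSO at 0.1% or WX-02-23 at 20 µM for 3 h. A matching line carried inducible wild-type (WT) FOXA1 in the same Y36C-PHF5A background and had the same treatments. Each line also had a DMSO library without doxycycline. Parental cells, with neither transgene, received DMSO, WX-02-23 or WX-02-43 (a second stereoprobe) at 20 µM, PladB, for which the labels give conflicting doses, or RNA interference directed at FOXA1 (siFOXA1) or at no stated target (siControl). FOXA1 was collected by chromatin immunoprecipitation and the bound DNA was sequenced (ChIP-seq). The labels name an antibody against FOXA1 and no tag, so the induced C258A protein and the cells' own FOXA1 were read together. They do not say how many clones each line holds.

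FOXA1 is a forkhead transcription factor. It binds its DNA motif in closed chromatin and opens sites for other factors, and for this it is called a pioneer factor. In prostate cells it works beside the androgen receptor and marks many of its enhancers. The study's title concerns covalent small molecules that act on FOXA1, and cysteines are a common target of such molecules. The C258A form has alanine in place of a cysteine. PHF5A is a subunit of the SF3b splicing complex, to which PladB (pladienolide B) binds, and its Y36C form is known for resistance to compounds of the PladB type. The comparison therefore asks how FOXA1 sites respond to WX-02-23 where the induced protein lacks that cysteine.

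The DMSO list held 13299 peaks and the WX-02-23 list 20609. Median peak widths were 533 and 547 bp. Among the other 10 lists, the numbers ran from 3018 to 34119. Each peak carries a score given by the authors, never below 90, which was used to order peaks within a list. Its size is not compared between lists, except that scores of single peaks are printed side by side as a description. Each group had 1 library and read totals were not analysed here, so the depth behind each list is unknown. There is thus no spread between replicates to set a difference against, and conditions were not tested. The Wilson 95% intervals beside shares take each peak as independent and cover counting error alone.

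Peaks of both lists were called shared when they overlapped by 1 bp or more. A DMSO peak that overlapped a WX-02-23 peak is called kept, and one that did not is called lost. A WX-02-23 peak without a DMSO partner is called gained. Peaks were then divided by the parental DMSO list. Those that overlapped it are called endogenous sites, and the others induced sites. The DMSO list held 5367 endogenous and 7932 induced peaks, and the WX-02-23 list 7981 and 12628. The division was set beside the lists without doxycycline. Of the kept endogenous peaks, 81.8% (80.7 to 82.8%) were called in C258A cells without doxycycline, against 142 of the 7123 kept induced peaks, or 1.99%. The WT list without doxycycline held 67.2% (65.9 to 68.5%) of the kept, 51.6% (46.8 to 56.4%) of the lost and 46.9% (45.1 to 48.7%) of the gained endogenous peaks.

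FOXA1 kept most of its sites in C258A cells with WX-02-23, at both endogenous and induced sites. Of the 13299 DMSO peaks, 1218 were lost, or 9.16%, and of the 20609 WX-02-23 peaks 8559 were gained, or 41.5%. At endogenous sites 4958 of 5367 peaks were kept, 92.4% (91.6 to 93.1%). At induced sites 7123 of 7932 were kept, 89.8% (89.1 to 90.4%), and these intervals lie apart. Endogenous peaks also scored higher. The median DMSO score was 192 at kept endogenous sites and 168 at kept induced sites. When the DMSO list was cut into 10 equal groups by score, the intervals of endogenous and induced sites overlapped in 10 of 10 groups. Each group holds fewer peaks, so its intervals are wider, and the overlap does not show that the shares are equal.

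Loss was concentrated among weak peaks. In the group with the highest scores, 431 to 3116, 760 of 760 endogenous and 569 of 570 induced peaks were kept. In the next group, 1330 of 1330 were kept. Down to the fifth group, 60 peaks in all were lost. In the last group, with scores from 90 to 99.4, 70.5% (66.1 to 74.5%) of endogenous and 70.6% (67.5 to 73.5%) of induced peaks were kept. Lost peaks had a median score of 106 and a median width of 435 bp, against 176 and 544 bp for kept peaks.

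**Figure D1:**
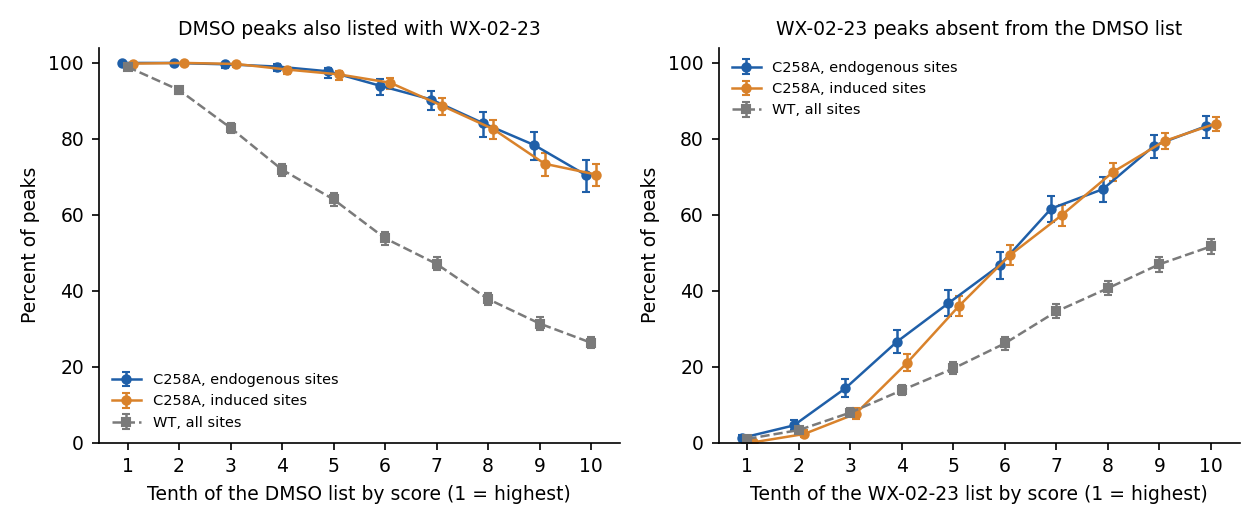
Percent of DMSO peaks kept (left) and of WX-02-23 peaks gained (right) in 10 equal groups of each list by score, 1 being the highest. Blue and orange points are C258A cells at endogenous and induced sites, grey squares are WT cells at all sites, and bars are Wilson 95% intervals. The lists are as deposited and differ in length. In C258A cells both kinds of site stay near 100% kept in the first 3 groups and reach about 70.5% in the last.

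A total of 11900 peaks had exactly 1 partner in the other list. The middles of such partners lay a median of 35.5 bp apart (quartiles 16.5 and 61.5 bp) in C258A and 37.5 bp apart in WT cells. Partners overlap by definition, so these distances describe the pairs and do not show that sites stayed in place. With WX-02-23, 70.9% of the C258A pairs were wider, by a median of 59 bp over all pairs, against 16.0% of the WT pairs. The score order of the pairs had a Spearman's rho of 0.765 in C258A and 0.617 in WT cells, over 11900 and 18949 pairs. These are descriptions across peaks of 1 library each, and the depth behind them is unknown.

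The longer WX-02-23 list brings weak peaks with it, so the comparison was repeated with 13299 peaks in each list. The DMSO list was then whole, and 7310 peaks were cut from the WX-02-23 list, leaving scores of 140 and above. At that length 3001 DMSO peaks were lost, or 22.6%, and 3048 peaks were gained, or 22.9%. Of the 3001, 1783 were still in the whole WX-02-23 list at a lower rank. Endogenous peaks were kept at 80.5% (79.4 to 81.5%) and induced peaks at 75.4% (74.4 to 76.3%). Intervals again overlapped in 10 of 10 score groups, which does not show equal shares. In the ninth group the shares were 51.0% (46.6 to 55.4%) of endogenous and 44.2% (40.8 to 47.5%) of induced peaks. The endogenous share was higher in the eighth and last groups too, and slightly lower in the third to seventh. In WT cells the deposited lists gave 39.3% lost and 24.6% gained. At the same length as above, 4420 WT peaks were lost, or 33.2%, and 4330 were gained, or 32.6%, so the gained share was higher in C258A cells with the deposited lists and lower at equal length. The kept shares there were 71.7% (70.5 to 72.8%) at endogenous and 62.9% (61.8 to 64.0%) at induced sites.

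The gap between the lines was present at each shorter length too. With the 500 highest-scoring peaks of each list, 72.2% (68.1 to 75.9%) were kept in C258A and 52.6% (48.2 to 56.9%) in WT cells. With 1000 peaks the shares were 74.7% and 57.6%, with 4000 they were 76.5% and 63.1%, and with 8000 they were 77.8% and 65.5%. The intervals of the lines did not overlap at any of the lengths run. Whether this exceeds the difference between repeat libraries was not tested, as each line has 1 library per condition.

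**Figure D2:**
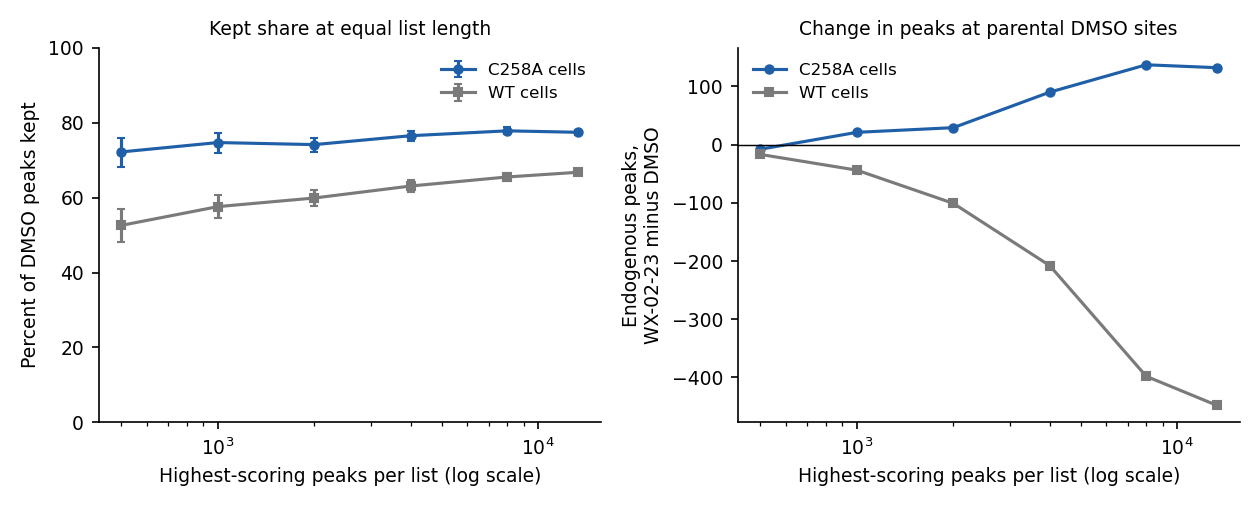
Left, percent of DMSO peaks kept with WX-02-23 when both lists hold the same number of their highest-scoring peaks, from 500 to 13299 (log axis), with Wilson 95% intervals. Right, number of endogenous peaks in the WX-02-23 list minus that in the DMSO list at the same lengths. C258A cells (blue) lie above WT cells (grey) on the left, and on the right they rise to 132 peaks where WT cells fall to -448.

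The endogenous share of the C258A list changed direction with list length. With the deposited lists, 40.4% (39.5 to 41.2%) of the DMSO peaks and 38.7% (38.1 to 39.4%) of the WX-02-23 peaks were endogenous, and in WT cells 35.7% (35.1 to 36.2%) and 34.8% (34.2 to 35.4%). At equal length the number of endogenous peaks in C258A cells went from 5367 to 5499 of 13299 peaks, from 40.4% (39.5 to 41.2%) to 41.3% (40.5 to 42.2%). In WT cells it went from 5869 to 5421, from 44.1% (43.3 to 44.98%) to 40.8% (39.9 to 41.6%). At that length the C258A intervals overlap and the WT intervals do not. Most peaks are common to the lists compared, so such overlap does not judge the change. Across shorter lists the change in C258A cells was 137 at 8000 peaks, 90 at 4000, 29 at 2000, 21 at 1000 and -8 at 500. The WT values at those lengths were -398, -208, -101, -44 and -17.

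Over all scores, gained shares in C258A cells were lower at endogenous than at induced sites. They were 38.0% (36.9 to 39.1%) and 43.8% (42.9 to 44.6%) with the deposited lists, and 21.7% (20.7 to 22.9%) and 23.7% (22.8 to 24.7%) at equal length, where the intervals overlap slightly. In WT cells at equal length they were 21.9% (20.8 to 23.0%) and 39.9% (38.8 to 41.0%), so the endogenous shares of the lines were alike and the induced shares were not. Within score groups the C258A order was different. At equal length, endogenous peaks were gained more often than induced ones in some of the groups with high scores. In the second score group 3.11% (2.04 to 4.70%) of endogenous and 0.459% (0.156 to 1.34%) of induced peaks were gained. In the fourth group the shares were 12.0% (9.50 to 15.0%) and 6.73% (5.19 to 8.70%), and in the sixth 27.1% (23.5 to 31.1%) and 20.4% (17.8 to 23.3%). Endogenous sites lay above induced ones beyond both intervals in 4 of 10 groups and below in 0. In WT cells they lay below in 10 of 10 groups. There the second group gave 4.84% (3.45 to 6.75%) and 10.2% (8.10 to 12.7%), and the sixth 27.3% (23.6 to 31.5%) and 41.0% (37.7 to 44.3%). With the lists as deposited the groups again numbered 4 above and 0 below in C258A cells and 10 below in WT cells.

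Most gained sites of C258A cells were FOXA1 sites in some other library, though less often than kept sites were. The induced WT list with DMSO alone held 95.5% of kept peaks, 74.6% of lost ones and 71.5% of gained ones. Taken in steps, 3033 of the 8559 gained peaks (35.4%, 34.4 to 36.5%) were parental DMSO peaks. Another 3681 (43.0%) were peaks of the induced WT list with DMSO, and another 453 (5.29%) of the WT list with WX-02-23. Peaks of parental WX-02-23, of C258A cells without doxycycline and of all remaining lists added 31, 20 and 45. This left 1296 (15.1%, 14.4 to 15.9%) in no other list. At equal length 259 of 3048 (8.50%, 7.56 to 9.54%) were in no other list. Lost peaks divided in much the same way, with 409 of 1218 (33.6%, 31.0 to 36.3%) at parental DMSO sites, 543 (44.6%) in the induced WT list with DMSO, and 203 (16.7%, 14.7 to 18.9%) in no other list.

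Lost and gained endogenous sites differed in how they fared in the libraries of other cells treated with WX-02-23. Of the 409 lost endogenous peaks, 49.1% (44.3 to 54.0%) were called in parental cells with WX-02-23, against 76.5% (75.3 to 77.6%) of the 4958 kept ones and 74.2% (72.6 to 75.7%) of the 3033 gained ones. In WT cells with WX-02-23 the shares were 45.2% (40.5 to 50.1%) for lost, 89.5% (88.6 to 90.3%) for kept and 68.1% (66.4 to 69.7%) for gained peaks. In WT cells with DMSO they were 89.5% (86.1 to 92.1%), 99.1% (98.7 to 99.3%) and 80.3% (78.9 to 81.7%). Each class, gained peaks among them, was thus called less often in the shorter WT list with WX-02-23 than in that with DMSO. Under PladB in parental cells the 3 classes lay close together, at 94.9%, 97.0% and 95.3%. With WX-02-43 the shares were 73.3% (68.9 to 77.4%), 85.1% (84.1 to 86.1%) and 75.5% (74.0 to 77.0%). The parental PladB list held 33121 peaks, against 17217 with WX-02-23 and 18228 with WX-02-43. Nearly all endogenous peaks were called with PladB, which leaves little room for the classes to differ. What list length adds to the contrast was not tested. The siFOXA1 list, which has 3018 peaks, held 1.71% of lost, 2.90% of kept and 1.85% of gained endogenous peaks.

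Lost peaks are weak ones, so lost and kept endogenous peaks were also set side by side within the lowest score groups of the DMSO list. In the last group, 71 of 131 lost peaks (54.2%, 45.7 to 62.5%) and 239 of 313 kept peaks (76.4%, 71.3 to 80.7%) were called in parental cells with WX-02-23. In the ninth group the shares were 47.2% (37.9 to 56.6%) and 70.3% (65.6 to 74.7%). In WT cells with WX-02-23 the last group gave 41.2% (33.2 to 49.8%) of lost and 79.2% (74.4 to 83.4%) of kept peaks. For PladB it gave 95.4% (90.4 to 97.9%) and 96.8% (94.2 to 98.3%), whose intervals overlap. For WX-02-43 it gave 73.3% (65.1 to 80.1%) and 83.1% (78.5 to 86.8%), which overlap as well. In the ninth group, however, the WX-02-43 shares were 68.9% (59.5 to 76.9%) of lost and 81.8% (77.6 to 85.3%) of kept peaks, and these intervals lie apart. There PladB gave 94.3% and 96.1%, with overlapping intervals. Nearly all of these peaks were in the longer PladB list, which leaves little room for a difference. Lost peaks were also called less often in WT cells with DMSO. The last group gave 83.2% (75.9 to 88.6%) of lost and 94.6% (91.5 to 96.6%) of kept peaks there. The ninth gave 88.7% (81.2 to 93.4%) and 96.4% (94.0 to 97.8%). C258A cells without doxycycline gave 67.9% and 77.6% in the last group, with overlapping intervals. In the ninth they gave 66.0% (56.6 to 74.4%) and 78.9% (74.5 to 82.7%).

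Induced sites lie outside the parental DMSO list by definition, so the WT lists are the ones that hold many of them. Of the 5526 gained induced peaks, 66.6% (65.4 to 67.8%) were called in WT cells with DMSO and 48.7% with WX-02-23. Lost induced peaks gave 67.1% (63.8 to 70.3%) and 38.1% (34.8 to 41.5%), and kept ones 93.1% and 77.2%. Parental cells with WX-02-23 held 274 of the 5526 gained induced peaks (4.96%, 4.42 to 5.56%), 203 of 7123 kept ones (2.85%, 2.49 to 3.26%) and 5 of 809 lost ones (0.618%, 0.264 to 1.44%). With WX-02-43 the shares were 0.977% of gained, 0.800% of kept and 0.989% of lost peaks.

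**Figure D3:**
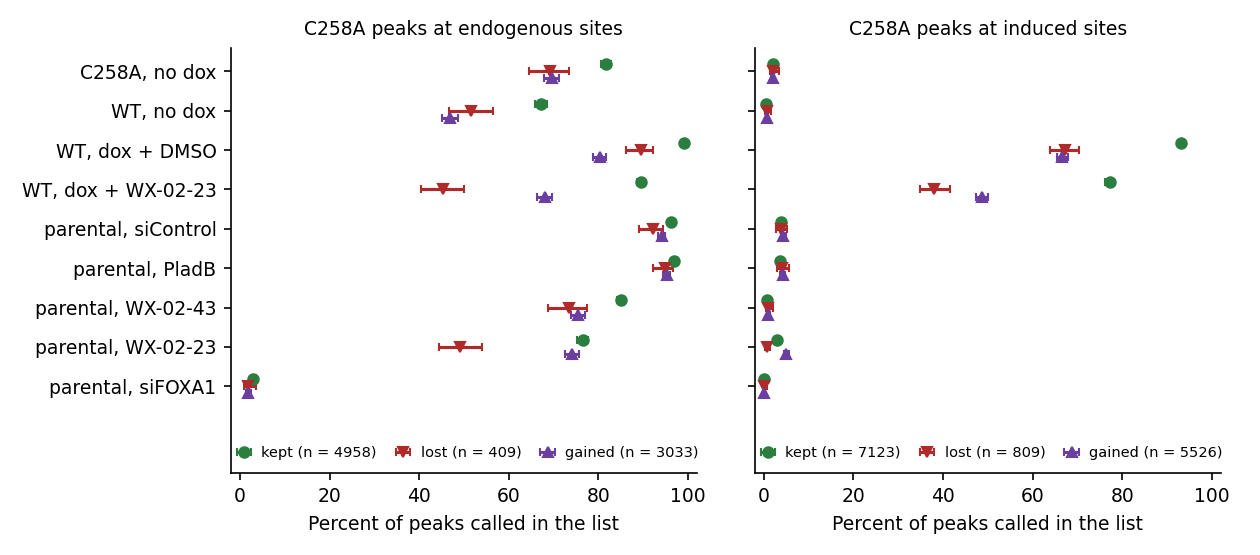
Percent of kept (green circles), lost (red triangles) and gained (purple triangles) C258A peaks that were called in 9 other lists, at endogenous sites (left) and induced sites (right), with Wilson 95% intervals. At endogenous sites lost peaks fall to 49.1% in parental cells with WX-02-23 and 45.2% in WT cells with WX-02-23, while the 3 classes lie between 94.9 and 97.0% with PladB. In WT cells with DMSO, lost, kept and gained peaks lie at 89.5%, 99.1% and 80.3%. The parental lists differ in length, with 33121 peaks for PladB and 17217 for WX-02-23.

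Calls turn on a threshold, so the shared peaks were also followed by rank. Each of the 11900 pairs was ranked among the pairs in the DMSO list and again in the WX-02-23 list, on a scale from 0 to 100 with 100 the highest score. The shift is the second rank minus the first. The same pairs are ranked in both lists, though which peaks form pairs still depends on list length. Sites were classed by parental lists, which share no library with this pair. Parental sites lost with WX-02-23 were called with DMSO, siControl, PladB and WX-02-43 and not with WX-02-23. Sites kept were called in all 5.

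In C258A cells the sites that parental cells lost with WX-02-23 moved down the order. Of 652 such pairs, 460 fell in rank (70.6%, 66.9 to 73.9%), with a median shift of -8.32 points (quartiles -21.1 and 1.61). Of the 3470 pairs at sites that parental cells kept, 46.8% (45.1 to 48.5%) fell, with a median shift of 0.746. Sites that parental cells missed with WX-02-43 only gave 95 of 207 (45.9%, 39.2 to 52.7%) and a median of 1.04. Sites gained in parental cells with WX-02-23 moved up, with 69 of 196 falling (35.2%, 28.9 to 42.1%) and a median of 3.46. Over all induced sites the median shift was -0.628.

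The fall was present at each starting rank except the lowest. Among pairs that began between the 60th and 80th percentile, the median shift was -15.6 points at 127 parental lost sites and -0.840 at 723 kept sites. Between 40 and 60 the medians were -21.0 and 0.857, and between 20 and 40 they were -7.97 and 7.72. In the lowest 20 both were positive, at 1.77 and 16.2, as any low rank has more room to rise.

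The WT line also had a fall at parental lost sites and a rise at parental gained sites, with larger medians. The kept sites had a median of the opposite sign to that in C258A cells. The WT shift was -12.9 points at 861 parental lost sites, -0.728 at 5118 kept sites, 6.30 at 489 sites missed with WX-02-43 and 11.6 at 511 sites gained in parental cells. The share that fell at parental lost sites was 69.7% (66.5 to 72.7%), within the interval of the C258A share. At sites gained in parental cells it was 25.8% (22.2 to 29.8%), and this interval overlaps that of C258A cells. With a reciprocal overlap of 50% in place of 1 bp, the shares that fell in C258A cells were 65.0% at parental lost and 51.0% at parental kept sites. At equal length the medians at parental lost sites were -8.85 in C258A and -13.1 in WT cells. How far the cells' own FOXA1, present in both lines, carries these shifts was not tested.

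**Figure D4:**
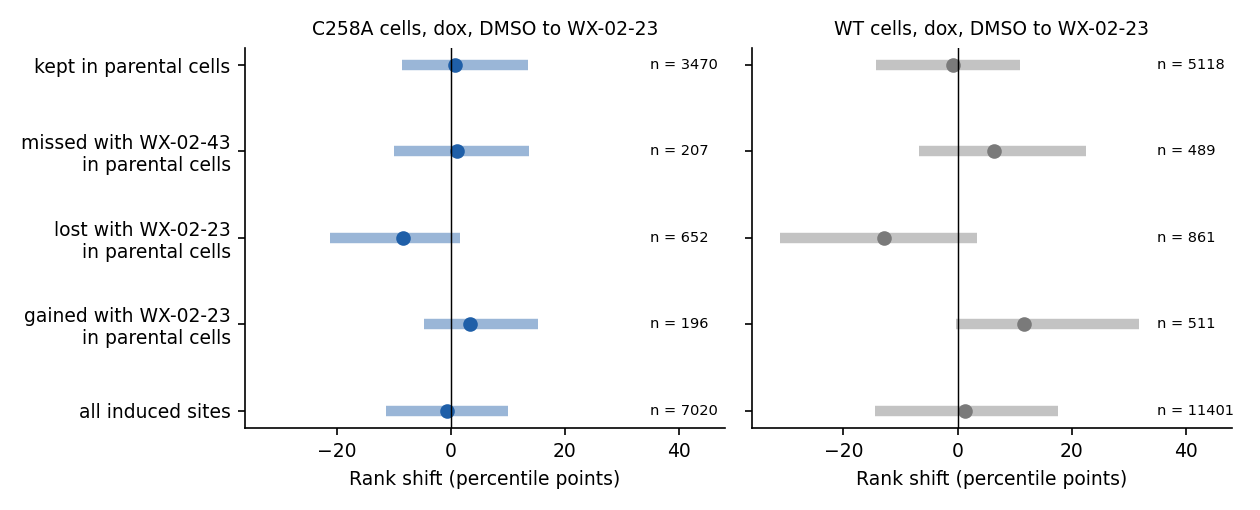
Rank shift from DMSO to WX-02-23 in percentile points for peaks listed once in both lists, in induced C258A cells (left) and WT cells (right), by what parental cells did. Points are medians, bars span the quartiles, and n is the number of pairs. Sites lost in parental cells lie at -8.32 in C258A and -12.9 in WT cells, and sites gained in parental cells at 3.46 and 11.6.

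The relation was then read the other way, from the C258A classes at equal length to the order of sites in parental cells. Between parental DMSO and parental WX-02-23, 574 pairs at sites lost in C258A cells shifted by a median of -16.2 points, and 23.9% (20.6 to 27.5%) rose. The 3260 pairs at kept sites shifted by -2.68, and 41.2% (39.5 to 42.9%) rose. The 952 pairs at gained sites shifted by 6.25, and 62.1% (59.0 to 65.1%) rose. With WX-02-43 in place of WX-02-23, the medians were -2.50, -1.17 and -1.39, and with PladB they were 0.0456, -0.165 and -0.848. The parental comparisons share their DMSO library, so they are not independent of one another.

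Starting rank differs between the classes, and the order held within it. Among parental pairs that began between the 60th and 80th percentile, the median shift with WX-02-23 was -21.0 points at 171 lost, -3.70 at 682 kept and 2.78 at 255 gained sites. In the top 20 the medians were -22.1, -5.33 and -2.72. With WX-02-43 the 60 to 80 range gave -3.87, -2.75 and -3.97. Between 40 and 60, WX-02-23 gave -18.8, 3.66 and 10.6, and WX-02-43 gave -4.30, 0.628 and -3.13. Lost sites thus lay below kept ones with WX-02-43 too, in each range but the lowest 20. There the WX-02-43 medians were 11.9 at lost and 9.69 at kept sites.

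**Figure D5:**
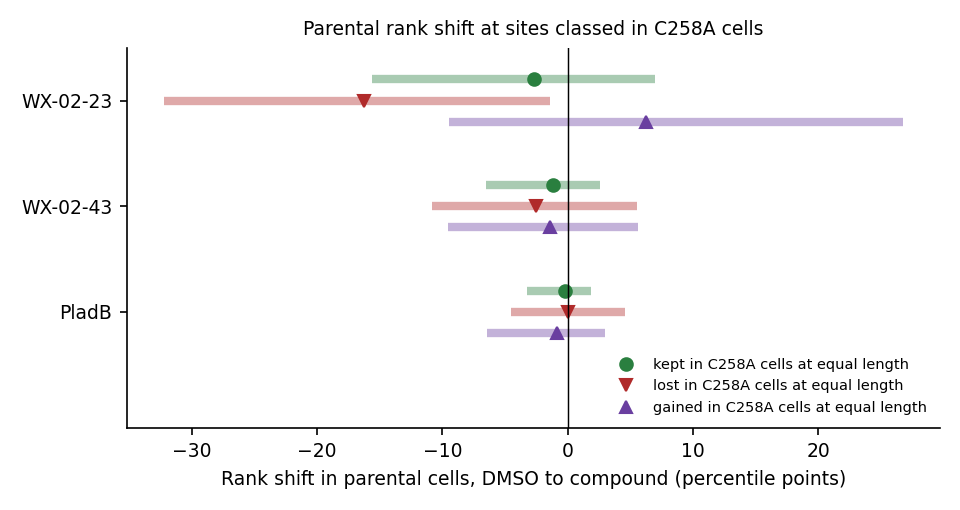
Rank shift in parental cells from DMSO to each of 3 compounds, in percentile points, at sites that C258A cells kept, lost or gained with WX-02-23 at equal list length. Markers are medians and bars span the quartiles. With WX-02-23 the medians spread from -16.2 to 6.25, with WX-02-43 from -2.50 to -1.17, and with PladB from -0.848 to 0.0456.

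The list of C258A cells without doxycycline gives the sites called in the same line without induction. Whether some transgene was expressed without doxycycline was not tested. It held 12752 peaks, 11836 of them at parental DMSO sites. Of the 12752, 4490 (35.2%) were called with doxycycline and DMSO and 6412 (50.3%, 49.4 to 51.1%) with doxycycline and WX-02-23. Of the 8262 absent with DMSO, 2223 (26.9%, 26.0 to 27.9%) were called with WX-02-23. Of the 4490 called with DMSO, 301 (6.70%, 6.01 to 7.47%) were absent with WX-02-23. At equal length the numbers became 941 (11.4%, 10.7 to 12.1%) and 813 (18.1%, 17.0 to 19.3%), so that 4618 of the 12752 were called with WX-02-23, 128 more than with DMSO. The intervals of these shares overlap, at 36.2% (35.4 to 37.1%) with WX-02-23 and 35.2% (34.4 to 36.0%) with DMSO. In WT cells at equal length, 554 peaks of the 8575 without doxycycline appeared with WX-02-23 and 1021 disappeared, a change of -467.

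The sites of the 2 lines were compared directly at equal length, where the lists share no library. Of the 3048 peaks gained in C258A cells, 520 (17.1%, 15.8 to 18.4%) were also gained in WT cells and 421 (13.8%, 12.6 to 15.1%) were lost there. Another 786 (25.8%) were in both WT lists and 1321 (43.3%) in neither. The WT lists were cut here from 31735 and 25849 peaks, so a site missing from them may lie under the cut. The whole WT list with DMSO held 2532 of the 3048 (83.1%), and that with WX-02-23 held 68.6%. For the peaks lost in C258A cells the whole WT lists held 81.4% and 51.6%. Of the 3001 lost peaks, 639 (21.3%, 19.9 to 22.8%) were also lost in WT cells and 247 (8.23%, 7.30 to 9.27%) were gained there. Of the 10298 kept peaks, 1812 (17.6%, 16.9 to 18.3%) were lost in WT cells and 589 (5.72%, 5.29 to 6.18%) gained.

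Single peaks illustrate the classes. They were taken by highest score, away from chromosome 8, and are given with hg19 coordinates, their score and, for some, their rank within a list. Scores are given as each list has them, as a description only. The lists differ in length, and their depth is unknown. Genes at these positions were not analysed here.

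Among kept endogenous peaks, the one with the highest DMSO score lay at chr9:104150678-104151785. It had a score of 3116 with DMSO and 2869 with WX-02-23, ranks 1 and 22, and was called in every list except siFOXA1. The next, at chr13:82448035-82449026, was called in all 12 lists, including siFOXA1 with a score of 522. The next, at chr12:132482996-132483682, was ranked 6 in both C258A lists and 4 and 28 in the WT lists with doxycycline. Its WX-02-23 score in C258A cells was 3100, a ceiling that 14 peaks of that list share, so its rank among them is arbitrary. In parental DMSO it had a score of 195 and rank 17378 of 30557, and in C258A cells without doxycycline a score of 131 and rank 8982 of 12752.

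The strongest kept induced peak, at chr4:180837192-180838118, scored 2270 with DMSO and 2768 with WX-02-23. The next, at chr22:28442279-28443134, scored 2025 and 2565. Both were called in the 4 induced lists and in none of the other 8. The next, at chr3:46948395-46950009, scored 1946 and 3100 and was also called in parental PladB, WX-02-23 and siControl lists.

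The lost endogenous peak with the highest score lay at chr2:182943596-182944213. Its DMSO score in C258A cells was 287, rank 2860, and no peak was called there with WX-02-23. Other libraries without WX-02-23 listed it with scores of 2121 in parental DMSO, 1877 with PladB, 1925 with siControl, 1230 with WX-02-43, 1400 in C258A cells without doxycycline, 685 in WT cells without it and 921 in WT cells with it. With WX-02-23 it scored 309.7 in parental and 179.7 in WT cells, ranks 5379 and 12456. The third, at chr4:177804193-177804784, scored 215 with DMSO in C258A cells and was absent from all 3 WX-02-23 lists, while WX-02-43 gave 546 and PladB 1021. The second, at chr5:23994448-23995522, scored 271 with DMSO and was absent in parental cells with WX-02-23 but present in WT cells with it, at 447.

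Lost induced peaks numbered 809 of 7932 (10.2%) and lost endogenous ones 409 of 5367 (7.62%), beside 9.16% lost over all DMSO peaks. The one lost peak in the group with the highest scores was 7057 bp wide, at chrY:58841423-58848479, with a score of 741. It was also called in parental WX-02-23, parental WX-02-43 and WT cells without doxycycline, and in neither WT list with doxycycline. It counts as induced only because the parental DMSO list lacks it. The next, at chr3:86184124-86184779, scored 272 and was shared with WT cells given DMSO only. The next, at chr19:27731748-27733720, scored 238 and was 1973 bp wide. The only other list that called it was parental WX-02-23, with a score of 270. The chrY and chr19 peaks were much wider than the median of 430 bp for lost induced peaks.

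The gained endogenous peaks with the highest scores were also called with WX-02-23 in parental and WT cells. The first, at chr3:18009098-18009812, scored 1075 in C258A cells with WX-02-23 (rank 453), 2181 in parental cells with it (rank 119) and 1094 in WT cells with it (rank 534). In parental DMSO it scored 608 (rank 5871), with PladB it scored 565, with WX-02-43 it scored 363 and in siControl 219. In WT cells with DMSO it scored 459 (rank 5193). The second, at chr3:33359605-33360299, scored 992 in C258A, 1728 in parental and 665 in WT cells with WX-02-23, and 292 in parental DMSO and 204 in WT cells with DMSO. The third, at chr10:126849263-126849805, scored 945, 1389 and 528 with WX-02-23, and 1066 in parental DMSO and 129 in WT cells with DMSO. It also scored 1069 with PladB, 1304 in siControl and 751 in C258A cells without doxycycline.

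Gained induced peaks with the highest scores were called with DMSO in WT cells. The first, at chr11:38141418-38142058, scored 556 in C258A cells with WX-02-23, and in WT cells 389 with DMSO and 174 with WX-02-23. The second, at chr18:31602449-31603219, scored 528, and in WT cells 597 and 132. The third, at chr11:38894369-38895453, scored 484, and in WT cells 298 with DMSO and none with WX-02-23. The strongest gained peaks found in no other list lay at chr3:67878190-67878960, chr1:83383322-83384077 and chr12:14539445-14540123, with scores of 364, 337 and 317 and ranks of 3989, 4461 and 4873.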

How the data were processed

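FOXA1 ChIP-seq peak lists of 12 libraries were used, 1 per group, of the 15 samples of the series. The 3 input libraries were not analysed here. Reads were handled with bcl2fastq and Bowtie2 and the build hg19, per the submitters' processing notes, with versions not given. Peak names begin with MACS. The caller's version, threshold and control are not given in the sources used here. Each list was called on 1 library. The deposited score per peak is the authors' own, with its definition not given. Starts were read as counted from 0 and are printed from 1.

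Overlap was computed with numpy 2.4.6 and pandas 2.3.3, tested on simulated data and checked against bedtools 2.31.1. Wilson intervals came from scipy 1.17.1. Score groups are 10 equal parts of a list. For equal length, lists were cut to their highest-scoring peaks, 13299 each. Pairs have 1 partner in each list. Scores at the ceiling of 3100 tie, which 3 peaks of the C258A DMSO list do.

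Named peaks are, outside chromosome 8, the 3 highest-scoring of each class at endogenous and at induced sites, and of gained peaks in no other list. The classes and lists were chosen with earlier results of these data known, and rank shifts and fates of peaks without doxycycline after seeing the lists. Alternatives changed the overlap, list length, threshold, chromosomes and definition of endogenous sites. The only gene tables used here are of another build, so planned motif and gene analyses were not run.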

Additional observations from a re-analysis of the deposited data

Results flagged for a closer look

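The following results moved in opposite directions in the C258A and WT lines, each from 1 library per condition, and in none of them was the difference between the lines tested. The number of peaks with WX-02-23 changed by 7310 in C258A and by -5886 in WT cells with the lists as deposited. With 13299 peaks per list, the number of endogenous peaks changed by 132 in C258A and by -448 in WT cells. At the same length, the number of peaks without doxycycline that were called with doxycycline changed by 128 with WX-02-23 in C258A cells and by -467 in WT cells. For both results at equal length, the intervals of the C258A shares overlap and those of the WT shares do not. The shares compared rest largely or wholly on the same peaks, so overlap of their intervals does not judge a change.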

How the results depend on the processing

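The 16 results were recomputed to give 100 further values. Of these, 51 lay inside the interval of the reported value and 49 moved outside it. They carry no test. The rank shifts and the fates of peaks without doxycycline, with their alternatives, were added after seeing the data. With autosomes alone, 16 of 16 values stayed, as did all 4 with siControl sites and all 4 with sites of both parental lists as the endogenous ones. No paired analysis was possible because each group has 1 library. Depth limits every count of peaks, and its effect was not tested.

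Equal length moved 11 values. Kept shares became 77.4% in C258A cells, 80.5% at their endogenous and 75.4% at their induced sites, and 66.8% in WT cells. Gained shares became 22.9% and 32.6%, so their order between the lines turned round, and 39.2% of gained C258A peaks were endogenous. Peaks without doxycycline appeared at 11.4% in C258A and 11.9% in WT cells, and disappeared at 18.1% and 26.1%.

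The top 50% of both lists moved 11 values: kept 92.0% (C258A), 91.7% (its induced sites) and 60.0% (WT), gained 40.7% and 25.7%, endogenous 40.3% of gained and 43.0% of lost peaks, 48.7% falling at parental kept sites, 13.9% and 9.16% appearing, and 31.2% disappearing in WT cells. The top 50% of one list against the whole other list moved all 8: kept 99.1%, 99.4% endogenous, 98.9% induced and 82.2% in WT, gained 14.8% and 9.16%, endogenous 42.8% of gained and 30.0% of lost peaks.

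A reciprocal overlap of 50% moved 12 values: kept 89.0%, 87.8% induced and 58.3% in WT, gained 42.6% and 28.4%, endogenous 25.03% of gained and 18.3% of lost peaks, falling 65.0% at parental lost and 51.0% at parental kept sites in C258A cells, disappearing 8.19% in C258A and 26.6% in WT cells, and appearing 28.2% in WT cells. Counting peaks within 500 bp of each other as shared moved 4: kept 62.1% in WT, gained 40.4% and 23.5%, and endogenous 36.5% of gained peaks. Peaks without doxycycline as the endogenous sites moved 3: kept 93.3%, and endogenous 25.9% of gained and 24.6% of lost peaks.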

Other observations

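Over 22 autosomes in C258A cells, the kept share ran from 86.2% on chromosome 16 to 96.3% on chromosome 20, with a median of 90.7%. The gained share ran from 36.4% on chromosome 7 to 55.5% on chromosome 22, with a median of 42.3%. Chromosome X stood above all of them, with 216 of 358 WX-02-23 peaks gained (60.3%, 55.2 to 65.3%). It held 1.21% of the C258A DMSO list and 1.74% of the WX-02-23 list. The WT lists with doxycycline held 1.74% with DMSO and 1.76% with WX-02-23, and the C258A list without doxycycline 2.27%. Chromosome X was singled out after its values were seen.

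Lost and gained peaks lay at like distances from kept ones. The median distance from the middle of a lost peak to the nearest kept peak was 55.9 kb, and that of a gained peak 59.5 kb. Within 10 kb of a kept peak lay 17.8% of lost and 17.0% of gained peaks. Induced sites lay closer than endogenous ones in both classes, at 51.0 against 72.9 kb for lost and 52.6 against 73.4 kb for gained peaks.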
